A study of Homo sapiens with 6 samples.

Results

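The BCL2 family genes described here are 10 members chosen by symbol: the pro-survival genes BCL2, BCL2L1 and MCL1, the effectors BAX and BAK1, and the BH3-only genes BID, BIK, BMF, PMAIP1 and BBC3. All 10 were found among the 34234 gene symbols of the deposited count table, and 9 of them passed the filter on low counts that left 17935 genes for testing. The filter was not passed by BIK. RNA was measured in HCCLM3 cells, an established human hepatocellular carcinoma line grown in DMEM with 10% fetal bovine serum. One group, shATXN7L3, had received a lentivirus carrying a short hairpin RNA against ATXN7L3, and the other, shcontrol, a lentivirus carrying a control hairpin, with 3 libraries in each. The labels give 1 hairpin name per group and do not say that the libraries came from separate cultures, so every p-value rests on the variation among the 6 libraries alone, and that variation may be purely technical. A poly-A selected RNA library is a bulk measurement, in which fewer cells with a transcript and less of it per cell cannot be told apart.

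Proteins of the BCL2 family decide whether the mitochondrial outer membrane stays intact. Pro-survival members hold the effectors BAX and BAK1 in check, the BH3-only proteins relieve that restraint or activate the effectors directly, and once the effectors form pores, cytochrome c leaves the mitochondria and caspases are activated. Hepatocytes are known to depend on BCL-XL, the product of BCL2L1, and on MCL1 for survival.

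The shATXN7L3 libraries held 22757031, 23915783 and 23608943 counts and the shcontrol libraries 23033763, 22376867 and 22671480. ATXN7L3 itself, an adaptor of the SAGA deubiquitinase module, had 20.6, 20.5 and 19.5 CPM in shATXN7L3 (counts per 1000000, scaled by TMM) and 36.4, 37.5 and 37.5 CPM in shcontrol. Its log2 fold change was -0.88 ± 0.056 (SE; edgeR adjusted p = 6.69e-10), with no overlap between the groups. Of the 10 hepatocyte markers, 9 were tested and all 9 fell, beside 12.0% of all tested genes. The log2 fold changes of these markers ran from -2.52 (TF) to -0.16 (KRT8). Their summed level was 1730 to 1876 CPM in shATXN7L3 and 2158 to 2314 CPM in shcontrol. Most of that sum was KRT8, at 1480 CPM in shATXN7L3 and 1652 CPM in shcontrol, which overlapped between the groups. APOA1 was near 0 (0.181 CPM in shATXN7L3 and 0.418 CPM in shcontrol). Of the 4 leukocyte markers 2 were tested, and 1 rose (CD68, 81.7% of whose exon bases lie in another gene on the same strand) and 1 fell. The 4 summed to 119.8 to 125 CPM in shATXN7L3 and 89.7 to 109 CPM in shcontrol. Of the 4 endothelial markers 2 were tested and 1 fell, and of the 4 fibroblast markers 1 was tested and fell. The other markers of these lists were below the filter on low counts or did not pass. Over all tested genes 24.2% were called. The endothelial and fibroblast markers summed to 42.4 to 44.4 and 5.14 to 6.03 CPM in shATXN7L3 against 57.2 to 62.1 and 23.4 to 27.7 CPM in shcontrol. Within these lists some markers were near 0, such as PTPRC at 0.196, VWF at 0.197 and COL1A1 at 0.210 CPM in shATXN7L3 against 0.149, 0.297 and 0.374 CPM in shcontrol. Others were not: CD68 stood at 122, PECAM1 at 28.0, KDR at 15.3 and LUM at 5.22 CPM in shATXN7L3 against 100.5, 43.7, 15.5 and 25.6 CPM in shcontrol. No marker was at 0 in all 6 libraries. What part the shift in these markers has in the results below was not tested.

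Of the 9 tested members 2 passed the test, BMF, which fell, and PMAIP1, which rose. That is 22.2% of them, beside 24.2% of all tested genes. The promoter-proximal sequences of BMF and PMAIP1 are shown because these are the members with a called change. Each is a window of 200 bases that ends 51 bases before the first RefSeq start (GRCh38.p14), read 5′ to 3′ on the strand of the gene. Capitals mark matches, on either strand, to the GC box GGGCGG, the CCAAT box CCAAT, the E box CACGTG, the TATA box TATAAA or the truncated CRE motif TGACGT. The BMF window is chr15:40108930-40109129 (minus strand) and the PMAIP1 window chr18:59899746-59899945 (plus strand).
BMF: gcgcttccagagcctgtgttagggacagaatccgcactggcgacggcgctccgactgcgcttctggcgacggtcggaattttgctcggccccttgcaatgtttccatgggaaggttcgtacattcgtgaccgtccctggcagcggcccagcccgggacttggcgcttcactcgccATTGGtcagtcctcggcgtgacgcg
PMAIP1: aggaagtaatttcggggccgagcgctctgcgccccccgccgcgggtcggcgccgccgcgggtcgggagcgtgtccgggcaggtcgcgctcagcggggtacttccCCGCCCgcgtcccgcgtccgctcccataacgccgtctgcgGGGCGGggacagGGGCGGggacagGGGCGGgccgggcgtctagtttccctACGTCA

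The windows of the 2 genes had no match to the same motif. BMF held 1 CCAAT box, read as its reverse complement, and none of the other motifs, at a GC content of 63.5%. A second RefSeq window of BMF, chr15:40107017-40107216, held none of the 5 motifs, at 48.5% GC. PMAIP1, at 76.0% GC, held 4 GC boxes and 1 truncated CRE. The median GC content of all windows was 57.5%, and BCL2, a member without a called change, had 75.0%. Over 35116 windows of the same length, 27.4% held a CCAAT box, 35.0% a GC box and 4.86% a truncated CRE. Of the 10 members, 8 were found by symbol in the set of RefSeq promoter windows used, and MCL1 and BIK were not. Among the 8, BAX had 2 CCAAT boxes and 2 E boxes while BCL2 had no match to any of the 5 motifs. Such matches are descriptions of letters and not sites shown to be bound. The bases between each window and the start were not searched, so a motif there, such as a TATA box, would be missed.

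Among the 9 tested members, 1 rose, 1 fell and 7 did not pass (edgeR quasi-likelihood test, adjusted p under 0.05 over all tested genes). Of all tested genes 12.2% rose and 12.0% fell (2182 and 2150 genes; 2955 and 1604 when scaled by library size alone). The share called in the family was near that of all genes. The median log2 fold change of the tested members was -0.02, beside 0.01 for all tested genes. The groups did not overlap for 2 tested members that were higher and 3 that were lower in shATXN7L3. Of all tested genes, 19.8% and 18.4% showed such a separation.

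**Figure D1:**
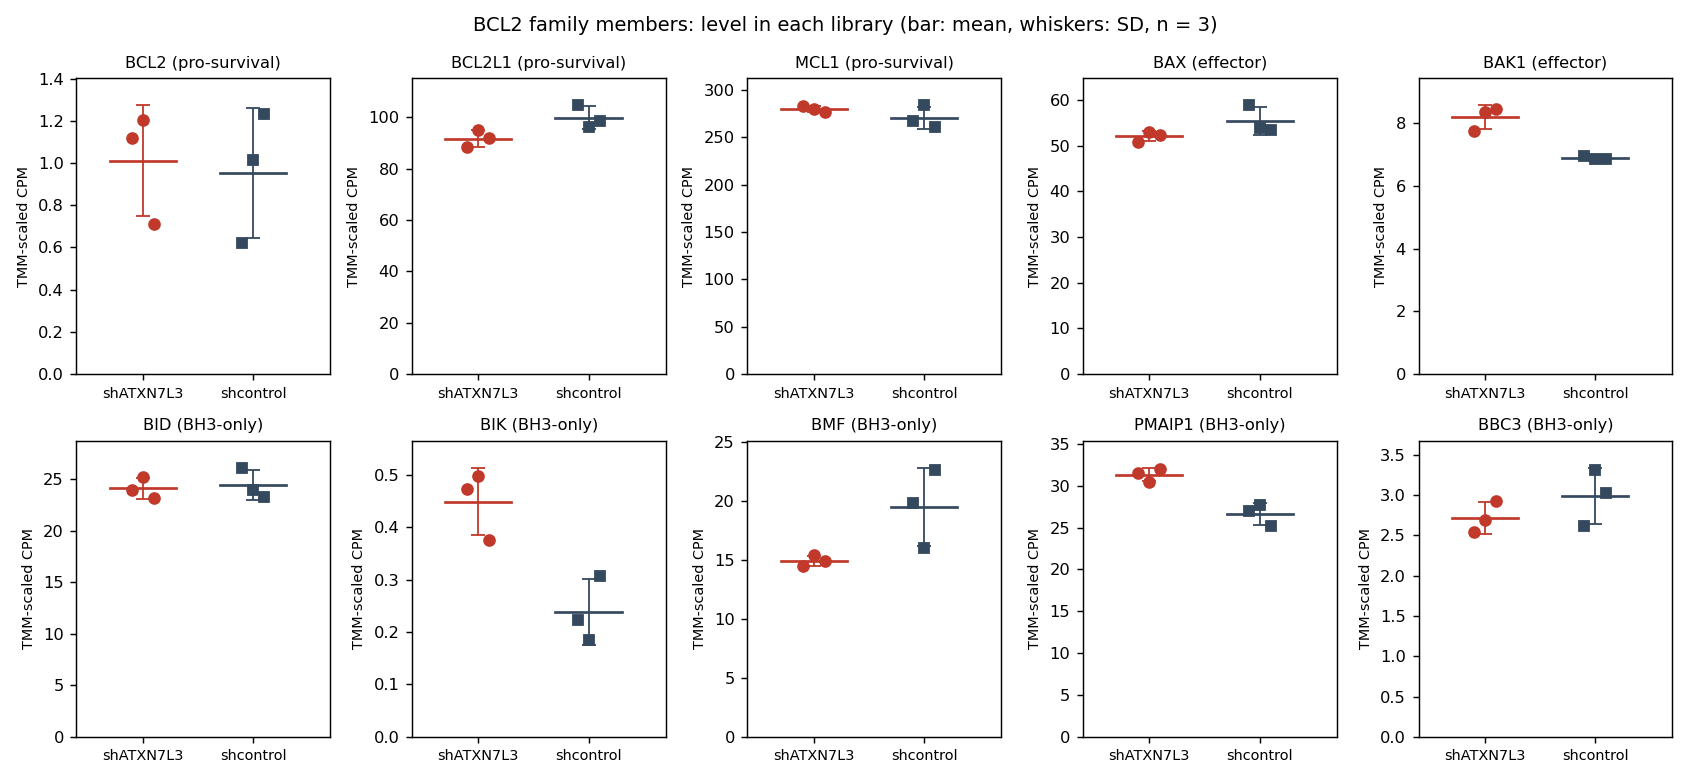
TMM-scaled CPM (vertical axes, each from 0) of the 10 members in the 3 shATXN7L3 libraries (red circles) and the 3 shcontrol libraries (dark squares), with a bar at the mean and whiskers of 1 SD. PMAIP1, BAK1 and BIK lie higher in every shATXN7L3 library than in any shcontrol library, and BMF, BCL2L1 and BAX lie lower. The shcontrol values of BMF spread from 16.1 to 22.6 CPM.

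BH3-only genes encode the sensors of the family. BMF, whose product is held at the cytoskeleton by dynein light chain until it is released to bind pro-survival proteins, had 14.5, 15.4 and 14.9 CPM in shATXN7L3 and 19.9, 16.1 and 22.6 CPM in shcontrol. The shATXN7L3 libraries lay close together and all below the lowest shcontrol library, while shcontrol replicate 2 stood well below the other shcontrol libraries. BMF averaged 14.9 ± 0.429 CPM in shATXN7L3 and 19.5 ± 3.30 CPM in shcontrol (SD, n = 3 each), which is 76.5% of the control level (95% interval 66.8% to 87.4%). The log2 fold change was -0.39 ± 0.093 (SE; edgeR adjusted p = 0.00425). The shcontrol values had a coefficient of variation of 16.9%, where counting alone gives 4.78%. Leaving out shcontrol replicate 3 gave -0.27 and leaving out shcontrol replicate 2 gave -0.51, and BMF passed in both cases. A larger change in size was found for 38.7% of the 4332 genes that passed. Its position is chromosome 15, 40087890 to 40108892, minus strand (GRCh38, as in the deposited table, like all gene positions here). Of BMF, 8.46% of the exon bases overlap an antisense gene, and whether its reads were kept apart is not known in counts of unstated strand.

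PMAIP1, which encodes NOXA, a selective antagonist of MCL1, had 31.5, 30.5 and 32.0 CPM in shATXN7L3 and 27.0, 27.7 and 25.2 CPM in shcontrol. Every shATXN7L3 library lay above every shcontrol library. The means were 31.3 ± 0.799 CPM in shATXN7L3 and 26.6 ± 1.28 CPM in shcontrol (SD, n = 3 each), or 118% of the control level. The log2 fold change was 0.24 ± 0.058 (SE; 95% interval 0.12 to 0.36; edgeR adjusted p = 0.00488). The change was small among those that passed, since 69.4% of the called genes changed more. Its position is chromosome 18, 59899948 to 59904306, plus strand, and its exons overlap no other gene of the table.

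The remaining BH3-only members did not pass or were not tested. BID, which links death receptors to mitochondria after cleavage by caspase-8, had 24.0, 25.2 and 23.2 CPM in shATXN7L3 and 26.1, 24.0 and 23.2 CPM in shcontrol. The groups overlapped, and the log2 fold change of -0.02 had a 95% interval of -0.15 to 0.11 (edgeR adjusted p = 0.876). BID is at chromosome 22, 17734138 to 17774770, minus strand. Its sign turned to 0.03 when scaled by library size alone, to 0.03 without shcontrol replicate 1 and to 0.01 without shATXN7L3 replicate 3. BBC3, which encodes PUMA, a protein that binds all pro-survival proteins, had 2.54, 2.70 and 2.93 CPM in shATXN7L3 and 2.62, 3.31 and 3.03 CPM in shcontrol. These libraries also overlapped, and the interval of the log2 fold change ran from -0.45 to 0.18 (edgeR adjusted p = 0.579). BBC3 is at chromosome 19, 47220822 to 47232766, minus strand.

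BIK, which encodes a BH3-only protein of the endoplasmic reticulum (chromosome 22, 43110748 to 43129712, plus strand), was at the edge of detection with 11, 12 and 9 counts in shATXN7L3 and 5, 4 and 7 counts in shcontrol. The groups did not overlap, at 0.377 to 0.498 CPM in shATXN7L3 and 0.184 to 0.308 CPM in shcontrol. The summed counts of 32 in shATXN7L3 and 16 in shcontrol gave a ratio of 1.88 after scaling, with an exact 95% interval of 1.00 to 3.67 that covers counting error only. When no filter on low counts was used, the edgeR test gave a log2 fold change of 0.90 with an adjusted p of 0.225. The lower end of the interval, 1.002, thus lies barely above no difference, and at this depth a change of BIK did not pass the test.

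The effectors BAX and BAK1 form the pores of the outer membrane, and neither passed the test. BAK1 (chromosome 6, 33572547 to 33580293, minus strand) had 7.74, 8.34 and 8.45 CPM in shATXN7L3 and 6.93, 6.86 and 6.85 CPM in shcontrol. The shcontrol libraries were nearly equal, and each shATXN7L3 library exceeded them. The log2 fold change was 0.25 ± 0.093 (SE; 95% interval 0.06 to 0.44), as large as that of PMAIP1, but the edgeR adjusted p was 0.0568. It passed when scaled by library size alone (0.29, adjusted p = 0.0263), which put the median of all genes at 0.05 in place of 0.01, and over all alternatives its adjusted p ran from 0.0263 to 0.235. The shcontrol libraries varied by 0.642%, far less than the 8.07% that counting alone gives at this level, so their closeness is no measure of precision.

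BAX, the other effector (chromosome 19, 48954815 to 48961798, plus strand), had 50.9, 52.9 and 52.4 CPM in shATXN7L3 and 58.8, 53.9 and 53.4 CPM in shcontrol. The shATXN7L3 libraries lay below the shcontrol libraries by a narrow margin, with shcontrol replicate 1 the highest. Its log2 fold change was -0.09 ± 0.052 (SE; 95% interval -0.20 to 0.02; edgeR adjusted p = 0.238). Per kilobase of exon, BAK1 stood at 17.8%, 18.4% and 18.9% of the BAX level in shATXN7L3 and at 13.8%, 14.9% and 15.0% in shcontrol. This ratio was chosen after the values were seen and is a description without a test.

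The pro-survival members MCL1, BCL2L1 and BCL2 did not pass either. MCL1, a short-lived protein that restrains BAK1 and is the partner of NOXA (chromosome 1, 150574551 to 150579738, minus strand), had 283, 280 and 276 CPM in shATXN7L3 and 267, 284 and 261 CPM in shcontrol. The groups overlapped, with shcontrol replicate 2 the highest of all 6 libraries. The log2 fold change was 0.05 with a 95% interval of -0.04 to 0.14 (edgeR adjusted p = 0.467).

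BCL2L1, whose main product BCL-XL guards the mitochondria of many epithelial cells (chromosome 20, 31664452 to 31723989, minus strand), had 88.3, 95.0 and 91.8 CPM in shATXN7L3 and 104.6, 96.2 and 98.7 CPM in shcontrol. The groups were separate, but shATXN7L3 replicate 2 and shcontrol replicate 2 lay close to each other. The log2 fold change was -0.12 ± 0.048 (SE; 95% interval -0.22 to -0.02; edgeR adjusted p = 0.0694). It passed without shcontrol replicate 3 (-0.14, adjusted p = 0.0446), within a range of 0.0446 to 0.289 over all alternatives. The opposite-strand gene ABALON covers 1424 of its exon bases, which are 43.0% of the exons of BCL2L1 and 74.8% of those of ABALON. ABALON stood at 46.3 ± 1.60 CPM in shATXN7L3 and 50.6 ± 1.52 CPM in shcontrol (log2 fold change -0.13, edgeR adjusted p = 0.0731). The strand setting of the counts was not given, so whether the reads of the overlapping pair were kept apart is not known. The splice forms of BCL2L1, which include a pro-apoptotic one, are summed in these counts.

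BCL2, the founding member of the family (chromosome 18, 63123346 to 63320128, minus strand), was low in these cells, with 26, 29 and 17 counts in shATXN7L3 and 14, 22 and 28 counts in shcontrol. Its level of 1.12, 1.20 and 0.711 CPM in shATXN7L3 overlapped that of 0.622, 1.01 and 1.23 CPM in shcontrol. The interval of the log2 fold change ran from -0.51 to 0.67 (edgeR adjusted p = 0.874), and its sign turned to -0.15 without shcontrol replicate 1 and to -0.07 without shATXN7L3 replicate 2. The direction of BCL2 was not detectable at this depth.

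**Figure D2:**
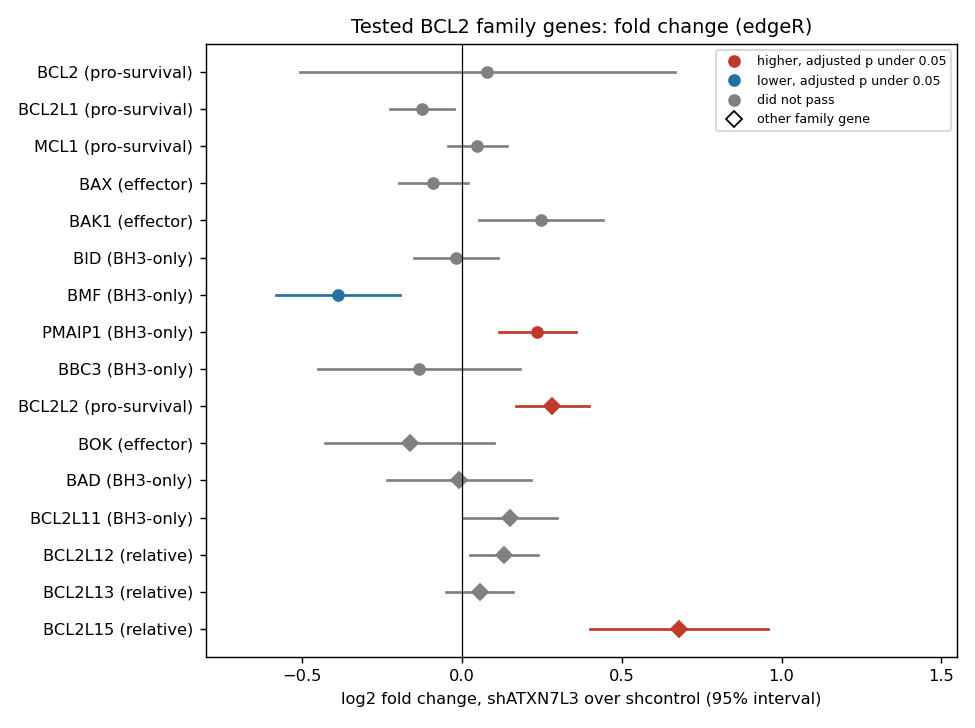
Log2 fold change of shATXN7L3 over shcontrol (horizontal axis) with its 95% interval for the 9 tested members (circles) and 7 other tested genes of the family (diamonds), blue where lower and red where higher at an edgeR adjusted p under 0.05, grey where neither. BMF is the 1 gene in blue, at -0.39, and PMAIP1, BCL2L2 and BCL2L15 are in red.

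Levels were compared between members per kilobase of exonic length, since longer transcripts collect more reads. In shATXN7L3 the order was MCL1 (64.0 CPM per kilobase), BCL2L1 (27.7), BAX (20.1), PMAIP1 (14.0), BID (5.43), BAK1 (3.70), BMF (2.74), BBC3 (0.856), BIK (0.471) and BCL2 (0.0859), and no neighbours in that order overlapped between libraries. In shcontrol the order was MCL1 (61.9 CPM per kilobase), BCL2L1 (30.1), BAX (21.4), PMAIP1 (11.9), BID (5.50), BMF (3.58), BAK1 (3.11), BBC3 (0.940), BIK (0.250) and BCL2 (0.0812). The orders of the groups differed in 1 place, where BAK1 stood above BMF in shATXN7L3 and BMF above BAK1 in shcontrol. In shcontrol these 2 did not differ beyond their spread, since BMF ran from 2.95 to 4.15 and BAK1 from 3.10 to 3.13 CPM per kilobase. The exonic length joins all annotated transcripts, so a gene with long exons that these cells do not use is placed too low by it.

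**Figure D3:**
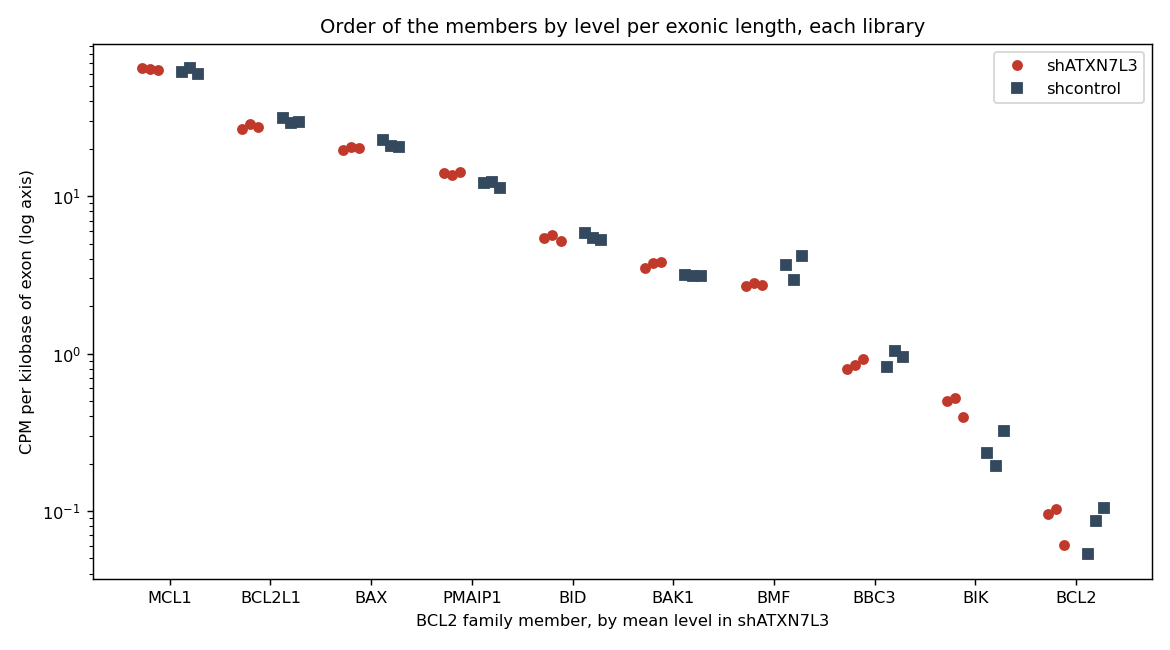
CPM per kilobase of exon on a log axis for each member in the 3 shATXN7L3 (red circles) and 3 shcontrol libraries (dark squares), ordered by the mean in shATXN7L3. MCL1 leads with 64.0 in shATXN7L3 and 61.9 in shcontrol, and BAK1 and BMF trade places between the groups.

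Sums and ratios over members were looked at per library, again chosen after the values were seen and without a test. MCL1 made up 45.6% to 46.9% of the summed level per kilobase of the 10 members in shATXN7L3 and 43.3% to 46.4% in shcontrol. The pro-survival members summed to 91.0 to 92.8 CPM per kilobase in shATXN7L3 and 89.5 to 94.1 in shcontrol, and the effectors to 23.2 to 24.2 in shATXN7L3 and 23.7 to 25.9 in shcontrol. Both sums overlapped between the groups. The BH3-only members summed to 23.5 to 23.6 CPM per kilobase in shATXN7L3 and 21.9 to 22.6 in shcontrol, which did not overlap. PMAIP1, the largest part of the sum, averaged 14.0 in shATXN7L3 and 11.9 in shcontrol, while BMF averaged 2.74 and 3.58. The sum thus uses the PMAIP1 values again and shows no separate rise of the BH3-only genes.

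Ratios between single members were read in the same way. BMF stood at 18.9%, 20.7% and 19.1% of the PMAIP1 level per kilobase in shATXN7L3 and at 30.2%, 23.8% and 36.9% in shcontrol. PMAIP1 stood at 21.8%, 21.3% and 22.6% of the level per kilobase of MCL1, which encodes its target protein, in shATXN7L3 and at 19.8%, 19.1% and 18.9% in shcontrol. Neither ratio overlapped between the groups. For BMF over PMAIP1 this follows from the separation of both genes, in opposite directions, and adds nothing to it. PMAIP1 over MCL1 uses the PMAIP1 values again, while MCL1 overlapped between the groups, and is no separate result. The ratio of MCL1 to BCL2L1 per kilobase was 2.43, 2.24 and 2.28 in shATXN7L3 and 1.94, 2.24 and 2.00 in shcontrol, where replicate 2 of both groups gave the same value to 3 digits.

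Of 11 further genes of the family, 10 were in the table, 7 were tested, 2 rose, 0 fell and 5 did not pass. The 7 had a median log2 fold change of 0.13, and 28.6% of them were called, beside 24.2% of all tested genes. BCL2L2, which encodes the pro-survival protein BCL-W, had 38.6, 36.4 and 36.9 CPM in shATXN7L3 and 31.3, 31.0 and 29.6 CPM in shcontrol. The groups were well apart, with a log2 fold change of 0.28 ± 0.054 (SE; edgeR adjusted p = 6.02e-04). A readthrough gene on the same strand, BCL2L2-PABPN1, shares 19.4% of its exon bases and rose too, to 60.0 ± 1.18 CPM in shATXN7L3, against 53.8 ± 1.27 CPM in shcontrol (log2 fold change 0.16, edgeR adjusted p = 0.0215). BCL2L15, a less studied relative, had 4.90, 4.73 and 4.44 CPM in shATXN7L3 and 2.89, 3.27 and 2.64 CPM in shcontrol, without overlap. Its log2 fold change of 0.68 ± 0.13 (SE; edgeR adjusted p = 7.80e-04) was the largest among the 16 tested family genes.

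The other family genes that were tested did not pass. BCL2L11, which encodes the BH3-only protein BIM, stood at 15.3 ± 0.636 CPM in shATXN7L3 and 13.8 ± 0.0323 CPM in shcontrol, with no overlap (log2 fold change 0.15, edgeR adjusted p = 0.127; 0.0487 by library size alone, the lowest of a range up to 0.384). Its shcontrol libraries varied by 0.235%, where counting alone gives 5.70%, so their closeness is no measure of precision. BCL2L12 stood at 69.6 ± 3.21 CPM in shATXN7L3 and 63.5 ± 2.54 CPM in shcontrol (0.13, adjusted p = 0.0650) and passed under 3 of 14 alternatives. For that gene 33.1% of the exon bases overlap IRF3 on the opposite strand. BCL2L13, BOK and BAD had log2 fold changes of 0.06, -0.16 and -0.01 and overlapped between groups. BOK is an effector-like relative and BAD a BH3-only protein controlled by phosphorylation. BCL2L10, HRK and BCL2L14 were below the filter, at 0.0709, 0.0694 and 0.154 CPM in shATXN7L3 and 0.0884, 0.0153 and 0.359 CPM in shcontrol. BCL2A1 was not analysed here.

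Downstream of the effectors, the apoptosome and caspase list had 9 tested genes, of which 3 rose, 1 fell and 5 did not pass. Their median log2 fold change was 0.11, and 44.4% were called, beside 24.2% of all tested genes. CYCS, which encodes the cytochrome c that the pores release, stood at 194 ± 11.2 CPM in shATXN7L3 and 169 ± 8.60 CPM in shcontrol (log2 fold change 0.21, edgeR adjusted p = 0.00491). It did not pass without shATXN7L3 replicate 2 (adjusted p = 0.0562, the highest of a range from 3.07e-04). CASP6, an executioner caspase, rose to 11.8 ± 0.313 CPM in shATXN7L3, against 9.15 ± 0.701 CPM in shcontrol (0.36, edgeR adjusted p = 0.00314). CASP2, an initiator caspase that can cleave BID, fell to 43.9 ± 3.09 CPM in shATXN7L3, against 55.4 ± 1.72 CPM in shcontrol (log2 fold change -0.33, edgeR adjusted p = 1.51e-04). The remaining riser, CASP10, named after its values were seen, stood at 3.15 ± 0.431 CPM in shATXN7L3 and 2.15 ± 0.569 CPM in shcontrol (0.55, edgeR adjusted p = 0.0326). It was not called under 5 of 14 alternatives, among them DESeq2 and leaving out any of 4 single libraries, with an adjusted p of up to 0.165. APAF1, CASP9 and CASP8 were among those that did not pass. APAF1 and CASP9 overlapped between the groups. CASP8 did not overlap, at 52.2 ± 1.21 CPM in shATXN7L3 and 47.4 ± 1.69 CPM in shcontrol (0.14, edgeR adjusted p = 0.0502).

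Inhibitor of apoptosis proteins (IAPs) hold caspases back. Of 8 genes for them and their antagonists, 2 rose, 0 fell and 6 did not pass, with a median of 0.05. The called share was 25%, beside 24.2% of all tested genes. BIRC3, which encodes cIAP2, stood at 7.03 ± 0.546 CPM in shATXN7L3 and 4.34 ± 0.637 CPM in shcontrol (log2 fold change 0.70, edgeR adjusted p = 2.20e-04). BIRC2, which encodes cIAP1, stood at 48.8 ± 0.925 CPM in shATXN7L3 and 43.1 ± 0.913 CPM in shcontrol (0.18, edgeR adjusted p = 0.0110). Its adjusted p was 0.0596 without shATXN7L3 replicate 2, the highest over all alternatives.

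Among 10 binding partners of the family, 0 rose, 1 fell and 9 did not pass, with a median of -0.02. The called share was 10%, beside 24.2% of all tested genes. The 1 that fell was VDAC1, a channel of the mitochondrial outer membrane, at 155 ± 6.22 CPM in shATXN7L3 and 174 ± 4.50 CPM in shcontrol (log2 fold change -0.16, edgeR adjusted p = 0.0115). It did not pass without shATXN7L3 replicate 1 (0.0923), shATXN7L3 replicate 3 (0.0736) or shcontrol replicate 2 (0.0627). DYNLL1 and DYNLL2, the dynein light chains that hold BMF and BIM, were among those that did not pass. Of 5 genes for the ubiquitin enzymes that act on MCL1, 0 rose, 1 fell and 4 did not pass, a called share of 20%. USP9X, the deubiquitinase that stabilises the MCL1 protein, fell to 239 ± 4.03 CPM in shATXN7L3, against 278 ± 15.3 CPM in shcontrol (log2 fold change -0.21, edgeR adjusted p = 0.00176).

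Of 13 tested genes for transcription factors known to act on BCL2 family promoters, 9 did not pass, 2 rose and 2 fell, with a median of -0.02. That is 30.8% called, beside 24.2% of all tested genes. HIF1A, the hypoxia factor that PMAIP1 and BNIP3 respond to, fell to 177 ± 0.681 CPM in shATXN7L3, against 251 ± 24.7 CPM in shcontrol (log2 fold change -0.51, edgeR adjusted p = 1.25e-06). ATF4, a stress factor that acts on PMAIP1 through CRE-like sites, rose to 166 ± 3.08 CPM in shATXN7L3, against 129 ± 6.02 CPM in shcontrol (0.37, edgeR adjusted p = 5.57e-06). STAT3, which acts on BCL2L1 and MCL1, rose to 58.3 ± 0.362 CPM in shATXN7L3, against 47.1 ± 1.37 CPM in shcontrol (0.31, edgeR adjusted p = 7.87e-05).

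DDIT3, which encodes CHOP and was named after its values were seen, was the other that fell, with 21.9 ± 0.310 CPM in shATXN7L3 and 25.5 ± 1.29 CPM in shcontrol (-0.22, edgeR adjusted p = 0.0131). It was not called under 3 of 14 alternatives, each the loss of 1 library, with an adjusted p of up to 0.0734. For DDIT3, 28.0% of the exon bases overlap MARS on the opposite strand. Whether any of these factors has a part in the change of a family member was not tested.

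The death receptor arm, which reaches the family through BID, had 8 tested genes, of which 2 rose, 1 fell and 5 did not pass. Their median was 0.08, and 37.5% were called, beside 24.2% of all tested genes. FAS, a death receptor, was low, with 22, 27 and 28 counts in shATXN7L3 and 9, 5 and 9 counts in shcontrol. All shATXN7L3 libraries lay above the shcontrol libraries, with a log2 fold change of 1.64 ± 0.30 (SE; edgeR adjusted p = 4.47e-04). FADD, the adaptor that joins such receptors to caspase-8, stood at 17.3 ± 1.17 CPM in shATXN7L3 and 14.5 ± 0.628 CPM in shcontrol (0.26, edgeR adjusted p = 0.0139). It did not pass with DESeq2 (0.0667) or without shATXN7L3 replicate 2 (0.0950) or shcontrol replicate 2 (0.0642), and 54.9% of its exon bases overlap an opposite-strand gene. TNFRSF1A, the main receptor for TNF, fell to 331 ± 8.28 CPM in shATXN7L3, against 396 ± 25.6 CPM in shcontrol (-0.26, edgeR adjusted p = 4.67e-04).

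**Figure D4:**
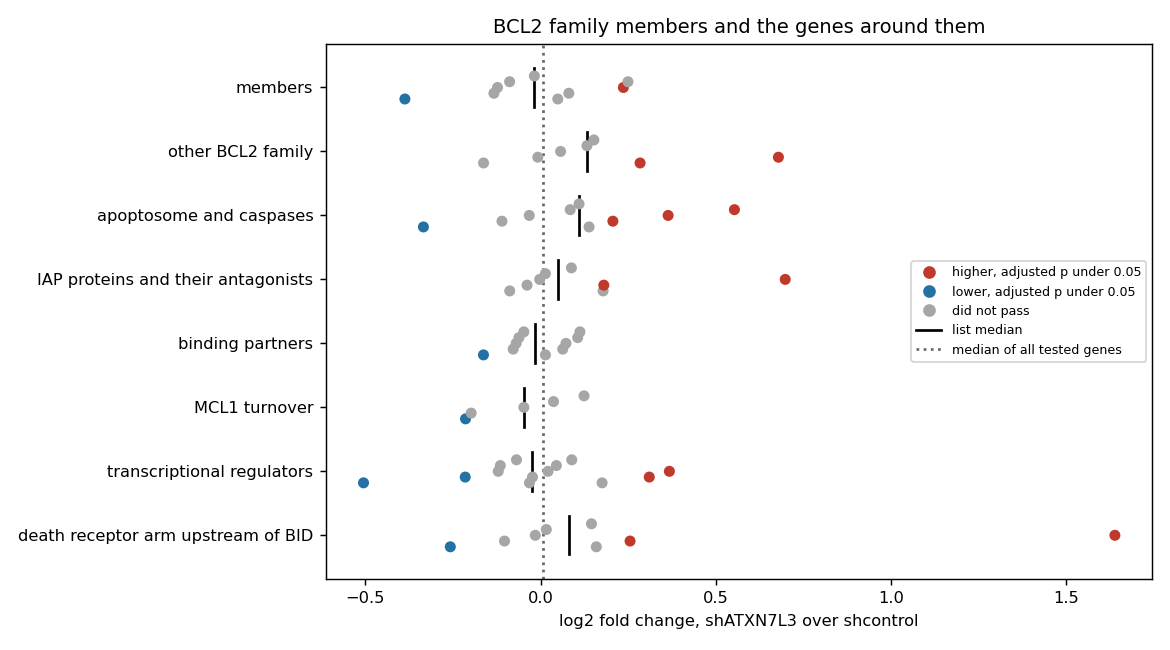
Log2 fold change of shATXN7L3 over shcontrol (horizontal axis) for each tested gene of the member list and the 7 lists around it (rows), red where higher, blue where lower at an edgeR adjusted p under 0.05 and grey where neither, with the list median as a black line and the median of all tested genes dotted. The member median of -0.02 lies beside the 0.01 of all genes, and FAS is the point at 1.64.

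Over all 65 genes around the members, 60 were tested, 11 rose, 6 fell and 43 did not pass, which is 28.3% called beside the 24.2% of all tested genes. Their median log2 fold change was 0.03.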

How the data were processed

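The authors deposited a table of raw read counts per gene with positions and exonic lengths. Tools listed in the submitters' processing notes are STAR 2.5.3a, Trimmomatic 0.36, Subread 1.5.1 with featureCounts, and edgeR 3.12.1, with the build GRCh38. For annotation, strandedness and multimapping reads, settings were not given in the sources used here. Groups came from the treatment labels and replicate numbers from the titles.

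From the deposited counts, genes were kept with filterByExpr of edgeR 4.0.16 in R 4.3.3 (minimum count 10, minimum total 15), scaled by TMM and compared with the edgeR quasi-likelihood test, with no covariate beside the group and p-values adjusted by Benjamini-Hochberg over 17935 genes. The SE is the log2 fold change divided by the square root of F. Members and lists were chosen with earlier results of these data known. Genes were named by rule: the members, the other genes of the family, and up to 3 genes per list with the smallest p among those past 0.05. CASP10, DDIT3, APAF1, CASP8, CASP9, DYNLL1, DYNLL2 and the markers with values are named outside this rule, after their values were seen. The procedure was tested on simulated data. Alternatives were other scalings and filters, DESeq2 1.42.0, limma voom (limma 3.58.1), a replicate block, each library left out, and a threshold of 0.01. Intervals on summed counts cover counting error only. Motif sequences came from RefSeq promoter windows, cut to 200 bases that end 51 bases before the start. Some genes of the lists are counted but not reported by name here.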

Additional observations from a re-analysis of the deposited data

How the results depend on the processing

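BMF and PMAIP1 kept their direction and passed under all 14 alternatives run, with adjusted p from 7.87e-06 to 0.0226 for BMF and from 0.00135 to 0.0329 for PMAIP1. Scaling by library size alone gave 2 members higher, since BAK1 passed there. Leaving out 1 library gave 1 to 2 members lower, the second being BCL2L1 without shcontrol replicate 3. DESeq2 called 3008 genes, 1405 higher and 1603 lower, and a threshold of 0.01 left 2645, 1285 higher and 1360 lower. Library size alone gave 2955 higher and 1604 lower. The other scalings and filters, limma voom and the block called 4207 to 4420 genes, and leaving out 1 library 3090 to 4405. The cause of these differences was not tested. The replicate numbers are not stated to mark a shared origin, and same-numbered libraries deviated from their group means with correlations of -0.016, 0.0051 and 0.044, so they were not treated as pairs. Not every library correlated best with its own number, and the replicate block called 4328 genes and the same number of members, 2. Depth limits the members BCL2 and BIK, with at most 29 counts per library, and of the other genes FAS and the untested BCL2L10, HRK and BCL2L14. Pairs of shcontrol libraries differed more than pairs of shATXN7L3 libraries. The mean chi-square per gene was 3.60, 6.52 and 3.86 for shcontrol pairs and 1.89, 1.59 and 2.18 for shATXN7L3 pairs. A wide shcontrol spread is thus not particular to single genes such as BMF, HIF1A or TNFRSF1A.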
